A study of Mus musculus with 10 samples.

Results

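The cytosolic ribosomal protein genes of mature mouse thymocytes were described in the short-read and long-read tables of both T cell lineages. Members were the genes whose symbol is Rpl or Rps with a number and at most one further letter, together with Rplp0, Rplp1, Rplp2 and Rpsa, without pseudogenes. Of 20303 genes with a protein-coding RefSeq transcript, 81 met this rule, 50 of the large (60S) and 31 of the small (40S) ribosomal subunit. Thymocytes that had kept CD4 alone (CD4SP) or CD8 alone (CD8SP), the T cells that leave selection as helper or cytotoxic cells, came from C57BL/6 mice aged 6 to 8 weeks, and 2 or 3 thymi were pooled for each sample. Bead depletion removed cells bearing the other coreceptor, and sorting kept TCRβ+ CD24- cells. Each lineage had 1 PacBio long-read library and 4 Illumina samples that differ in sequencing lane. The 4 lanes of a lineage stand in 1 deposited table of FPKM (fragments scaled by transcript length and library depth), so every value below is a single pooled one, no replicate exists, and no p-value is given for short reads.

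A cytosolic ribosome holds one copy of almost every ribosomal protein, and the exceptions are the acidic proteins of the stalk, which are present in several copies. Translation of these messages is coordinated by a run of pyrimidines at their first transcribed bases, the 5′ TOP motif, which places them under the control of the growth-sensing kinase complex mTORC1. Leaving quiescence is accompanied in T cells by an increase in ribosome production. Several members are known in T cells beyond this shared role. Loss of Rpl22 blocks the development of αβ T cells, and RPL10, RPL5 and RPL22 are mutated in T-cell leukaemia.

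Runs of pyrimidines were looked for around the annotated starts. RefSeq start windows (GRCm38.p6) were matched for 61 of the 81 members. An unbroken run of at least 7 bases that were all C or T was searched on the strand of the gene only. Its start was taken between 20 bases before and 30 bases after the annotated start. A run that began further upstream was counted from 20 bases before, as in Rpl39 and Rps25. Such a run was found in 45 of the 61 members (73.8%). The same rule found a run in 30.5% of 16227 genes, and in 28.4% of those at 1 FPKM or more. A run counted wherever it started in that window, as in Rpl4, where it starts 26 bases inside, so the count is not one of TOP motifs at the first base. The first transcribed base was C in 32.8% of the members and in 14.1% of all genes. The windows printed are of members that the results turn on, with the run in capitals. Rps3, which was among the most abundant members, had no run of this length in its window and is shown in lower case throughout.
Rps24 (chr14:24490670-24490699, plus strand): tggggTCCTTCCTTgcgcgttgatatgatt
Rpl27a (chr7:109519186-109519215, plus strand): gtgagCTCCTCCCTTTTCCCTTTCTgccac
Rplp2 (chr7:141447641-141447670, plus strand): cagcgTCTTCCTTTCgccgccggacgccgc
Rpl4 (chr9:64173407-64173436, plus strand): gcgtggCCTTCTCCTCTCCCCgtcatggtg
Rps9 (chr7:3704030-3704059, plus strand): ccttgTCTCTCTTTgtctcgggcctgagtt
Rps6 (chr4:86857344-86857373, minus strand): tcgggCCTCTTTTTCgtgacgcctcccagg
Rpl12 (chr2:32961708-32961737, plus strand): atccgTCTTTTCggctttcggctcggagga
Rps3 (chr7:99483690-99483719, minus strand): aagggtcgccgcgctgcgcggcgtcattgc

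Ribosomal protein genes took up more of the CD8SP than of the CD4SP table. Their FPKM summed to 4393 in CD4SP, which is 3.69% of all gene FPKM, and to 7986 in CD8SP, which is 5.44%. The sum was 1.82-fold higher in CD8SP, while the sum over all genes was 1.23-fold higher. The 10 most abundant members held 66.1% of the member sum in CD4SP and 67.9% in CD8SP, and they were the same 10 genes in both. Rps9, Rpl4, Rpl41, Rplp1, Rpl8, Rps3, Rps26, Rps24 and Rplp0 were among them.

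A gene was called when its FPKM reached 1 in either library, (FPKM + 0.1) differed at least 2-fold, and the deposited intervals did not overlap. Of the 81 members, 67 reached 1 FPKM, and 20 of them were called higher in CD8SP against a background of 9.8% of all genes tested. Another 4 members were called higher in CD4SP, against a background of 4.54% (14.3% for either direction), and in all 4 the CD8SP value is listed at 0. Among the 67, 59 had a log2 ratio above 0, as did 65.7% of all genes tested. The median log2 ratio was 0.70 over the members and 0.22 over all genes tested. Genes at 1 FPKM or more in both libraries had a median of 0.22 too, and relative to this shift the member median was 0.49, with 53 of 67 members above it, as were 50.3% of all genes tested. With the libraries scaled to remove it, 13 members were called higher in CD8SP and 5 in CD4SP, against backgrounds of 6.67% and 6.45%. The 60S members had a median of 0.79 and the 40S members one of 0.61. The plot of both libraries shows the members lying along a line above equality.

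The exon-based value credits every transcript with the part of a gene's RefSeq exons it covers. With it 73 members were tested, 14 were called higher in CD8SP against a background of 7.12% and 5 in CD4SP against 2.81%. Of the 24 called members, 15 were also called with this value, 13 in CD8SP and 2 in CD4SP.

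**Figure D1:**
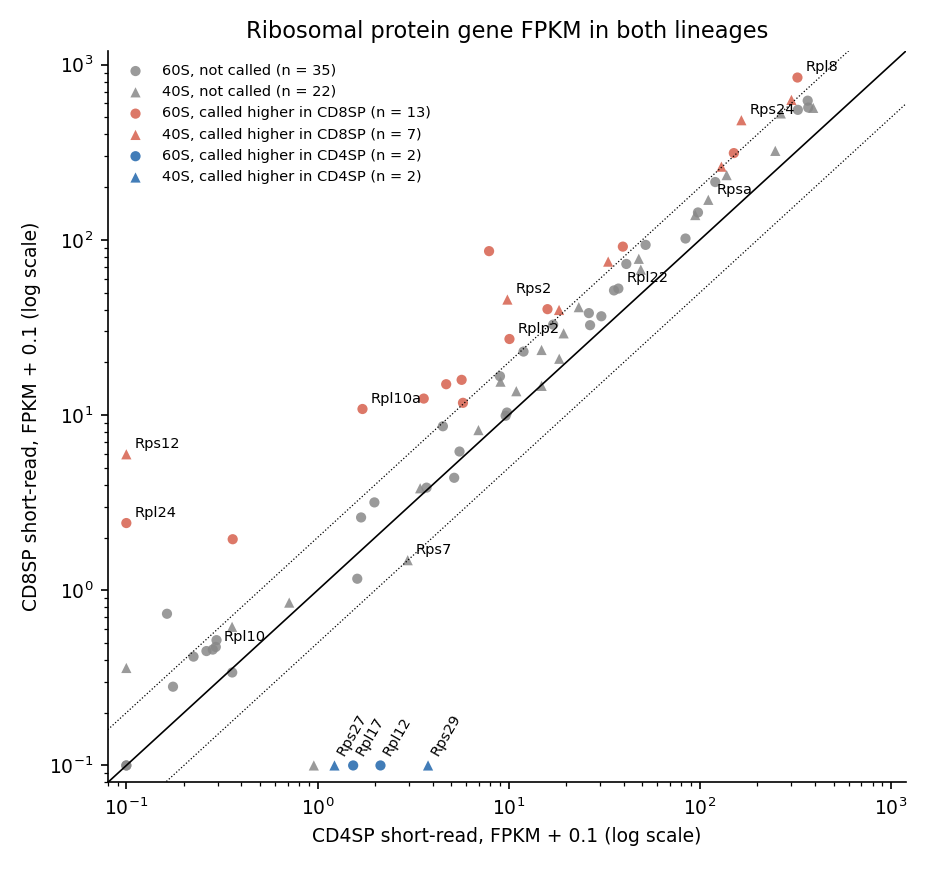
FPKM + 0.1 of the 81 members in the CD4SP (x axis) and CD8SP (y axis) short-read tables, on log scales; circles are 60S and triangles 40S genes, the solid line is equality and the dotted lines are 2-fold differences. The 20 genes called higher in CD8SP lie above the upper dotted line and the 4 called higher in CD4SP lie on the floor, where the CD8SP value is listed at 0.

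The excess was shared by members that were well measured. In 38 members that reached 10 FPKM in both libraries, 37 were higher in CD8SP, where 68.7% of all genes at that level were. The exception was Rps15a, at 14.8 FPKM in CD4SP and 14.6 in CD8SP. In the exon-based value Rps15a stood at 8.57 and 16.4, and all 38 were higher in CD8SP. The highest ratio was that of Rps24, whose log2 ratio of 1.55 was 0.65 in the exon-based value and -1.93 with RefSeq transcripts only. Their median ratio was 1.66-fold, and 9 of the 38 were called higher in CD8SP against a background of 4.81%. Ribosomal protein messages are short, with a median RefSeq length of 703 bases against 2397 over all genes, and short genes as a class were higher in CD8SP. The 252 other genes under 1000 bases that reached 10 FPKM in both had a median log2 ratio of 0.55, with 86.5% above 0, beside 0.73 in the members. Among all genes under 1000 bases, 16 of 50 members were called higher in CD8SP against a background of 22.2%, and 4 in CD4SP against 5.12%. This comparison by length was chosen after the data were seen, and the part of length in the difference was not tested.

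The 14 proliferation genes, which include subunits of the replicative helicase, were also higher in CD8SP. Of the 14, 11 were called, against a background of 9.8%, and the median log2 ratio was 1.35. Mcm3, a helicase subunit, had 8.35 and 28.4 FPKM. Their part in the ribosomal protein difference was not tested, and in bulk RNA a change in the share of dividing cells and a change in RNA per cell cannot be told apart. Markers followed the sort. Summed FPKM of the CD4SP lineage markers was 143 in CD4SP and 2.17 in CD8SP, and that of the CD8SP lineage markers was 47.8 and 801. Markers of other cell sources were summed as well. B cell genes summed to 0.679 and 5.51 FPKM, mostly Cd79b (0.583 and 5.49). Cd79a and Pax5 are listed at 0 in both, but Cd79a had an exon-based value of 7.05 in CD4SP and 0.248 in CD8SP. Double-positive genes summed to 32.8 and 17.8, and myeloid and dendritic genes, mostly Cst3, to 24.6 and 30.01. Erythroid genes summed to 6.34 and 4.45, and stromal genes, mostly Pecam1 (22.4 and 14.8), to 23.6 and 15.9. Their part was not tested either.

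**Figure D2:**
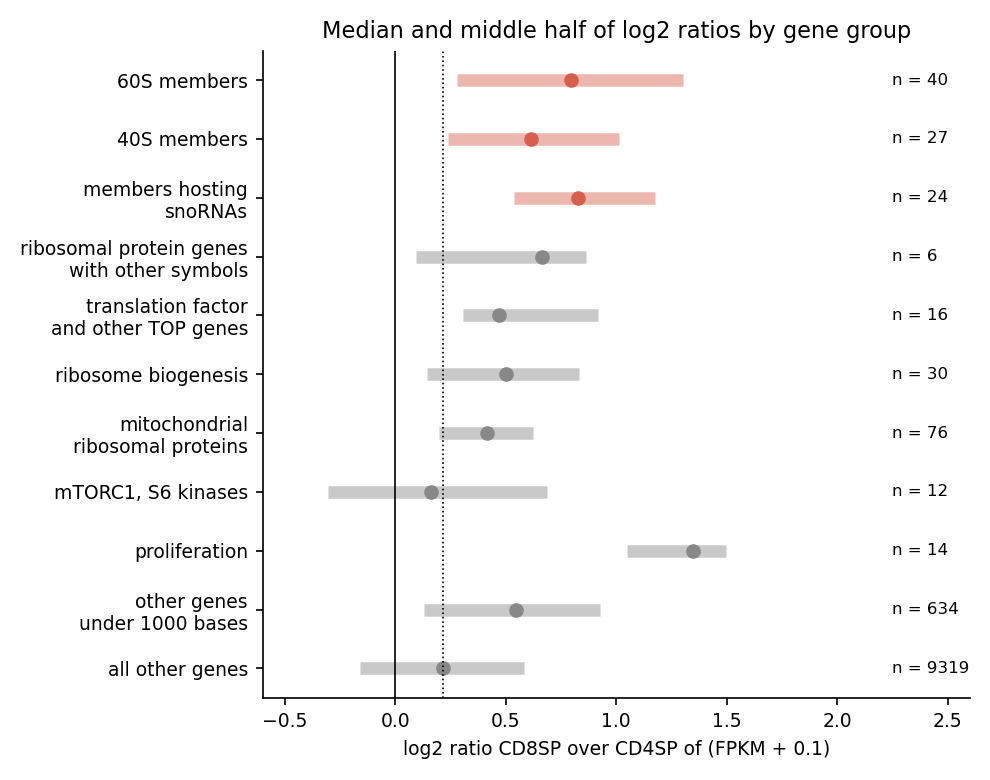
Median (point) and interquartile range (bar) of the log2 ratio of CD8SP over CD4SP (FPKM + 0.1) in each gene group, with the number of genes tested; the dotted line is the median of genes at 1 FPKM or more in both libraries. The 60S and 40S members (0.79 and 0.61) lie to the right of all other genes (0.22) and close to other genes under 1000 bases (0.55).

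The acidic stalk recruits the translation factors to the large subunit, and of its proteins Rplp0 and Rplp2 were called higher in CD8SP and Rplp1 was not called. Rplp0, the base of the stalk (chromosome 5, 115559467 to 115563729, plus strand, GRCm38), had a CD4SP level of 150 FPKM and a CD8SP level of 313, which was 2.08-fold higher and called. The call was lost in the exon-based value (log2 ratio 0.99) and with RefSeq transcripts only (0.66, from 128 and 202 FPKM). Rplp2 was 2.71-fold higher, at 9.99 and 27.1 FPKM, and was called too, although both values lie outside their own deposited intervals. Rplp1, its dimer partner, stood at 325 and 552 FPKM, a 1.70-fold difference that did not reach the threshold. Rpl10a, the protein of the separate L1 stalk, had 1.62 and 10.7 FPKM and was called, but through different transcripts. The CD4SP value is that of the RefSeq transcript, with 6 exons and 830 bases, and the CD8SP value is that of assembled transcripts of 2 to 4 exons and 1150 to 2205 bases. Rpl12, which sits at the base of the acidic stalk, was at 2.03 FPKM in CD4SP and is listed at 0 in CD8SP.

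Among the other 60S members, Rpl8, which lies beside the peptidyl transferase centre, showed the highest level of all members in CD8SP. Its FPKM of 324 in CD4SP and 844 in CD8SP (chromosome 15, 76904071 to 76906318) differed 2.61-fold. Part of this sum in CD8SP is an assembled fragment of 3 exons and 285 bases at 277 FPKM, and the RefSeq transcript alone stood at 324 and 567 FPKM. Rpl4, a protein of the exit tunnel, stood at 368 and 569 FPKM, and Rpl41, the smallest ribosomal protein, at 366 and 623. Neither of these reached a 2-fold difference. Their values, like those of 21 members in CD4SP and 19 in CD8SP, lie outside the deposited intervals, which are therefore an incomplete measure of error.

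Other 60S members called higher in CD8SP included Rpl9 (0.260 and 1.86 FPKM), Rpl37a (3.49 and 12.3), Rpl19 (4.61 and 14.9), Rpl27a (5.57 and 15.8), Rpl32l (15.9 and 40.1), Rpl39 (39.4 and 91.4) and Rpl18 (5.66 and 11.6). The exon-based value did not call Rpl9, at 3.99 and 5.59. Rpl32l spans 592 bases, the length of its transcript, and its reads may not be separable from those of Rpl32, which stood at 120 and 214 FPKM.

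The 40S subunit binds and decodes the messenger RNA. Of its 27 tested members, 7 were called higher in CD8SP and 2 in CD4SP, against backgrounds of 9.8% and 4.54%. Rps3, at the entry channel, stood at 301 and 629 FPKM (chromosome 7, 99477897 to 99483709, minus strand) and was called at 2.09-fold. The exon-based value did not call Rps3, at 192 and 344, and its RefSeq transcripts alone stood at 98.7 and 101 FPKM. Rps2, also at the entry side, stood at 9.74 and 45.5 FPKM, a 4.67-fold difference that was called and was larger in the exon-based value (9.74 and 53.6). Rps9 stood at 391 and 566 FPKM, and Rps26, at the exit channel, at 248 and 322, and neither was called. Rps15 was called at 129 and 261 FPKM, Rps14 at 33.0 and 75.01, and Rps19, the gene most often mutated in Diamond-Blackfan anaemia, at 18.2 and 39.7. Rps19 was not called in the exon-based value, at 21.3 and 41.7. After scaling, Rps15, Rps14, Rps19, Rps3, Rplp0, Rpl18 and Rpl39 were no longer called.

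Rps24, another Diamond-Blackfan gene, lies on the plus strand of chromosome 14 (24490681 to 24496146). Its FPKM of 165 in CD4SP and 481 in CD8SP differed 2.92-fold. Its direction depended on which transcripts were counted. In CD4SP the RefSeq transcript of 5 exons held 135 FPKM, and in CD8SP it held 35.4. In CD8SP an assembled transcript of 4 exons and 378 bases, whose first exon is listed with 1 base, held 425 FPKM. In the exon-based value Rps24 stood at 145 and 229, a log2 ratio of 0.65 that was not called. With RefSeq transcripts alone its log2 ratio was -1.93. 

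The 4 genes called higher in CD4SP, Rpl12, Rpl17, Rps27 and Rps29, stood at 2.03, 1.44, 1.13 and 3.69 FPKM there. For 3 of them the CD4SP value came from assembled transcripts alone, the exception being Rps29. In the exon-based value only Rpl12 (8.27 and 3.47) and Rps29 (5.65 and 2.27) were called in that direction, while Rpl17 stood at 4.13 and 3.78 and Rps27 at 13.4 and 11.6. Rps27 also has a non-coding RefSeq transcript outside the rule, at 9.84 FPKM in CD4SP and 11.6 in CD8SP. Among the genes called higher in CD8SP, Rps12 and Rpl24 are listed at 0 in CD4SP and stood at 5.87 and 2.32 FPKM in CD8SP, through long assembled transcripts. In the exon-based value neither was higher in CD8SP, with Rps12 at 6.61 and 6.42 and Rpl24 at 4.77 and 2.30. Without genes listed at 0 in a library, 18 members were called higher in CD8SP and 0 in CD4SP, against backgrounds of 9.05% and 4.06%.

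FPKM differed widely between members. In CD4SP 17 members were under 1 FPKM, 26 between 1 and 10, 24 between 10 and 100 and 14 at 100 or more, and in CD8SP these numbers were 18, 14, 32 and 17. A value of 0 was listed for 5 members in CD4SP and 7 in CD8SP, and for Rpl10l and Rpl26 in both. Members under 1 FPKM in both libraries included genes of proteins that all ribosomes contain, such as Rpl10 (0.194 and 0.375 FPKM), Rpl11 (0.0632 and 0.634), Rpl23a (0.196 and 0.419), Rpl27 (0.162 and 0.350), Rpl28 (0.258 and 0.239), Rpl37 (0.125 and 0.318), Rps16 (0.611 and 0.750) and Rps23 (0.257 and 0.518). Rps13 was at 0.856 FPKM in CD4SP and listed at 0 in CD8SP, and Rps28 was listed at 0 in CD4SP and stood at 0.260 in CD8SP. An FPKM at or near 0 in these tables is thus no measure of absence. Rpl26 was listed at 0 in both and had an exon-based value of 50.2 and 51.4.

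Ribosomal protein genes have many near-identical copies in the genome, mostly processed pseudogenes, and short reads from one cannot always be assigned. The coding sequence of each member was compared with all GENCODE M21 transcripts, and other genes with at least 95% identity over at least 80% of it were counted in 80 matched members. The 6 members with no such copy had a median of 137 FPKM in CD4SP and 271 in CD8SP, the 31 with 1 to 4 copies one of 19.3 and 51.3, and the 43 with 5 or more one of 5.57 and 10.2. The median of the first group has no member near it. Of its genes, the tissue-restricted paralogs Rpl3l and Rpl39l and the p53-induced Rps27l stood at 8.96 FPKM or less in CD4SP, and Rpl8 and Rps3 at 301 or more. Across the 80 members, Spearman's rho between copies and FPKM was -0.22 in CD4SP and -0.24 in CD8SP, given as a description since the members share libraries. Rpl21, with 57 copies, stood at 26.5 and 32.5 FPKM, and Rpl7a, with 31, at 30.4 and 36.5. In each group of copy number the median log2 ratio was above 0, at 1.03, 0.76 and 0.46. Absolute levels of members with copies are uncertain.

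**Figure D3:**
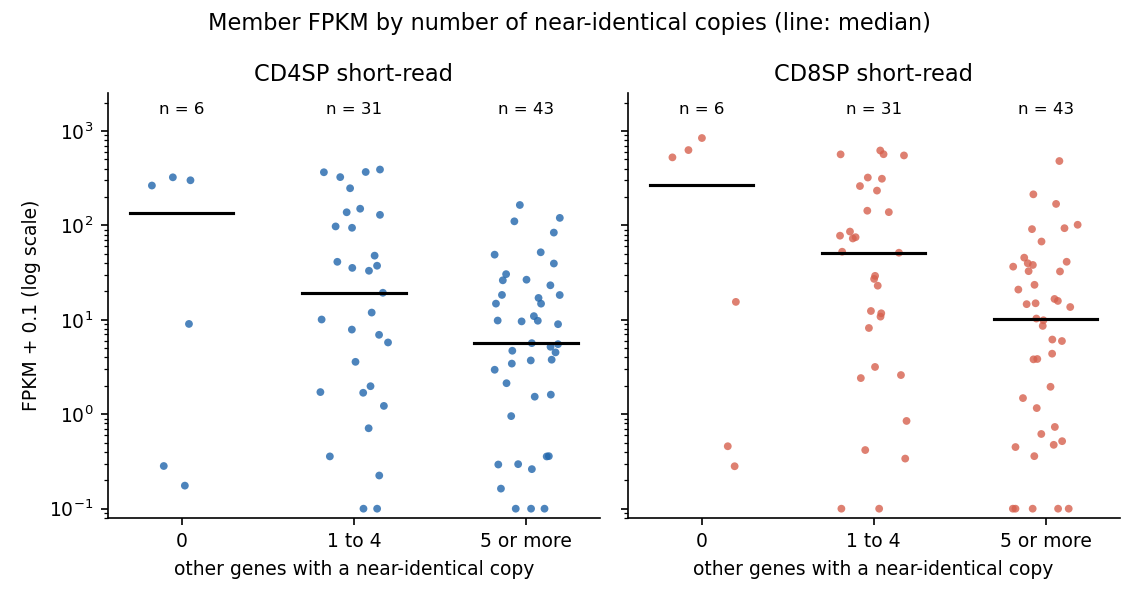
FPKM + 0.1 (log scale) of 80 members by the number of other genes with a near-identical copy of the coding sequence, in the CD4SP (left) and CD8SP (right) short-read tables, each point a gene and the line the median. Median FPKM is 19.3 and 5.57 in CD4SP and 51.3 and 10.2 in CD8SP for members with 1 to 4 and with 5 or more copies, and the 6 members with 0 copies lie far above or far below their median.

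Tissue-restricted paralogs were at the bottom of the range. Rpl3l, the paralog of heart and skeletal muscle, stood at 0.0754 and 0.182 FPKM, beside 17.0 and 32.7 for Rpl3. Rpl39l, a paralog of the male germ line, stood at 0.183 and 0.359 FPKM, beside 39.4 and 91.4 for Rpl39. Rpl10l, also of the testis, was listed at 0 in both libraries, but here Rpl10 itself stood at only 0.194 and 0.375 FPKM. Rps27l, a p53-induced paralog, stood at 8.96 and 15.4 FPKM, and Rps4x at 49.0 and 67.5.

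Members with roles outside the ribosome or in T cells spanned the range of levels. Rpl22 had 37.4 and 52.6 FPKM, with a log2 ratio of 0.49 that was not called, and its paralog Rpl22l1 at 4.07 and 4.22. Rpl5 and Rpl11 form with the 5S ribosomal RNA the particle that inhibits Mdm2 when ribosome assembly is disturbed. Rpl5 stood at 3.62 and 3.75 FPKM, and Rpl11 was under 1 FPKM in both. Rps6, the substrate of the S6 kinases, stood at 10.9 and 13.6 FPKM. Rpsa, also known as a laminin receptor, stood at 111 and 169, Rpl13a, a regulator of inflammatory translation, at 41.1 and 72.7, Rps27a, made as a fusion with ubiquitin, at 3.34 and 3.72, and Rpl38, which controls translation of Hox messages in the embryo, at 1.88 and 3.07. None of these was called.

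Introns of 29 members contain a small nucleolar RNA (snoRNA) in GENCODE, among them Rpl4, Rps3, Rpl13a and Rpsa. Of the 24 that were tested, 7 (29.2%) were called higher in CD8SP, 2 were called higher in CD4SP, and 0.82 was the median log2 ratio. The shares over all genes tested were 9.8% and 4.54%. Among the 43 tested members with no such snoRNA, 13 (30.2%) were called higher in CD8SP, 2 were called higher in CD4SP, and 0.62 was the median.

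Other genes of the translation machinery were read in the same way, beside the same backgrounds over all genes tested, 9.8% higher in CD8SP and 4.54% in CD4SP. Of 6 ribosomal protein genes with other symbols, 0 were called, with a median log2 ratio of 0.66, and the most abundant, Rack1 and Rps3a1, stood at 242 and 425 and at 132 and 189 FPKM. Of 16 translation factor and other TOP genes tested, 3 were called higher in CD8SP (Eef1d, Npm1 and Naca) and 1, Btf3, in CD4SP, with a median of 0.47. In the exon-based value 0 were called in either direction. Eef1a1, the elongation factor that delivers aminoacyl-tRNA, stood at 596 and 955 FPKM. Of 30 ribosome biogenesis genes, 5 were called higher in CD8SP and 0 in CD4SP. These were Rrp9, Gnl3, Pes1, Nip7 and Npm1, and the list had a median of 0.50. After scaling 2 of the 30 were called, and in the exon-based value 0 were. Rrp9, a component of the small-subunit processome, stood at 5.28 and 14.5 FPKM, and Gnl3, the nucleolar GTPase nucleostemin, at 7.83 and 19.9.

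In the mitochondrial ribosome, whose proteins are encoded by a separate set of nuclear genes, 5 of 76 genes tested (6.58%) were called higher in CD8SP, where 9.8% of all genes were, and 1, Mrpl42, was called higher in CD4SP. In the exon-based value 3 were called higher in CD8SP and 0 in CD4SP, with Mrpl42 at a log2 ratio of 0.81. Their median was 0.41. Mrpl33 had 20.3 and 33.0 FPKM. The 12 mTORC1 and S6 kinase genes had a median of 0.16. Of these, 0 were called higher in CD8SP and 2, Rps6kb2 and Mlst8, in CD4SP, against backgrounds of 9.8% and 4.54%. Rps6kb2 had 3.999 and 1.03 FPKM, and Mlst8 at 5.87 and 2.84, and in the exon-based value both were slightly higher in CD8SP, with log2 ratios of 0.21 and 0.26. That value called 2 other genes of the list higher in CD8SP, Myc (1.07) and Eif4ebp1 (1.08), and 0 in CD4SP. Whether any list differed from another was not tested.

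Splicing of the members was described by events built from the intron chains of both tables. PSI, percent spliced in, measures how much of an event's FPKM the longer or upstream form carries. An event was called when PSI differed by 20 points or more and both libraries had 1 FPKM or more over its forms. There were 107 events in 28 members, and 43 of them in 12 genes were called, against a background of 18.4%. PSI was higher in CD8SP for 18 and in CD4SP for 25. Retained introns made up 65.4% of the member events and 44.5% of all events, and 29 of 70 were called against a background of 22%. Most events include a form assembled in 1 library only, which is at 0 in the other by construction. Of the 13 events with both forms in both libraries, 3 were called, against a background of 11.8%. Rpl23 and Rpl10a, with 8 and 7 called events, held the most, and without them 28 of 91 were called.

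Those called with both forms in both libraries included events of Rpl23 and Rps24. Retention of a 454-base intron of Rpl23, a protein of the face that meets the small subunit (chromosome 11, 97781890 to 97782343), had a PSI of 39.6% and 12.6%. In Rps24 the use of the downstream of 2 donor sites 4 bases apart, with introns starting at 24492117 and 24492121, had a PSI of 3.29% and 88.3%. The CD8SP share is that of the 425 FPKM assembled form. The retained introns of Rplp2 and Rps14 with both forms in both libraries had a lower PSI in CD8SP without reaching the threshold. In Rps14 retention of a 378-base intron stood at 11.1% and 5.45%, and in Rplp2 retention of a 2229-base intron at 20.1% and 1.34%.

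In annotated events RefSeq holds both forms, but their PSI also counts assembled transcripts, and in Rps27a all of its FPKM is assembled. There were 10 in 7 members, and 6 were called, against a background of 17.7%. All 6 have a form at 0 in a library, and 0 of the 3 events with 5 FPKM or more in each library were called. Rpl31, a protein at the rim of the exit tunnel, held 3 of the 6, at 5.09 and 4.28 FPKM in all. Its alternative donor site of 72 bases had a PSI of 0% and 100%. The upstream first exon of Rpl19 stood at 28.3% and 0%, an alternative donor of Rpl38 at 0% and 46.2%, and retention of a 95-base intron of Rps27a at 0% and 52.0%.

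Rps24 is known to be alternatively spliced near its 3′ end in a tissue-dependent way, and its annotated small exons are printed for that reason, in capitals over the whole exon. The exon of 20 bases is annotated as not coding and that of 18 bases as partly coding, and both were at 0 FPKM in both libraries.
Rps24 exon of 20 bases (chr14:24495430-24495449, plus strand): TGAGTGGAGATTGGATACAG
Rps24 exon of 18 bases (chr14:24494052-24494069, plus strand): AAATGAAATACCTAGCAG
All Rps24 FPKM counted, 165 in CD4SP and 481 in CD8SP, thus came from transcripts without these exons.

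**Figure D4:**
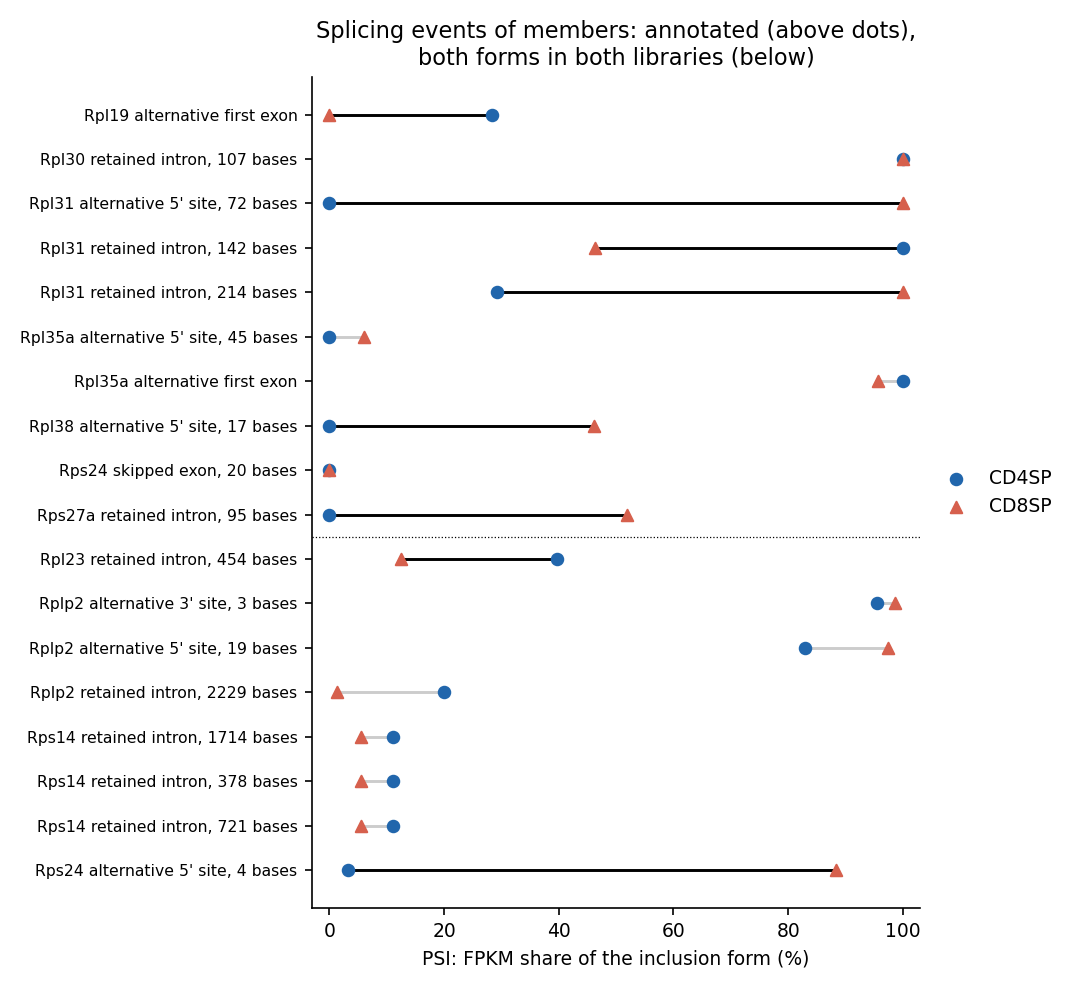
PSI (%) in the CD4SP (circles) and CD8SP (triangles) short-read tables for the 10 annotated events of members (above the dotted line) and 8 of the 13 events with both forms in both libraries (below), with black lines where the difference reached 20 points. Below the line every retained intron lies further left in CD8SP, and the Rps24 donor site moves from 3.29% to 88.3%.

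Both kinds of library placed transcript ends inside the annotated last exon of some members. In 36 members with at least 10 FPKM over the last exon in both libraries, 30 had 0 FPKM in transcripts that end 100 bases or more before the RefSeq end, and 6 had some, Rps3, Rps24, Rplp0, Rpsa, Rpl23 and Rpl22. In Rps3 these made up 67.2% in CD4SP and 83.9% in CD8SP, in Rps24 17.9% and 92.7%, in Rplp0 12.3% and 35.2%, and in Rpsa 16.2% and 36.4%. These 4 had a larger share in CD8SP. In Rpl23 the shares were 39.6% and 0%, and in Rpl22 11.6% and 8.37%.

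In Rps3 the difference between lineages lay in the early-ending form. The transcript with the full annotated last exon held 98.7 FPKM in CD4SP and 101 in CD8SP, and the assembled one that ends early held 202 and 528.

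**Figure D5:**
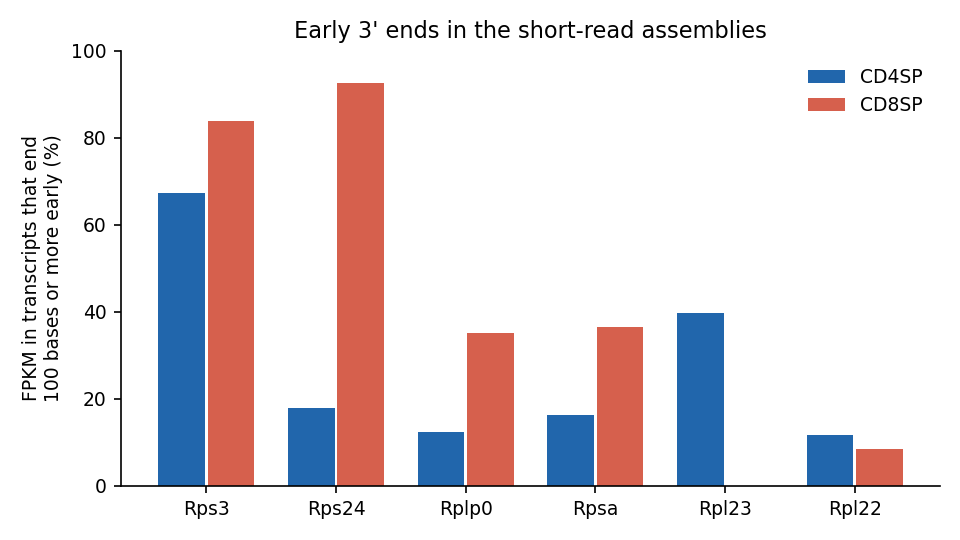
Share (%) of FPKM over the last exon in transcripts that end 100 bases or more before the RefSeq end, in the CD4SP and CD8SP short-read tables, for the 6 of 36 members with any. Rps3, Rps24, Rplp0 and Rpsa have the larger share in CD8SP, Rpl23 and Rpl22 in CD4SP.

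Long reads ended 100 bases or more before the annotated end in 6 isoforms of 5 members. The distances were 990 bases in Rps3, 1106 in Rps24, 217 in Rplp0, 367 in Rpl13a, and 153 and 152 in Rpl4. All windows lie in annotated exons. The distances are to the end of the matched transcript, and other GENCODE exons end within 10 bases of the long-read end in Rps24 (4 exons), Rps3 (2) and Rpl13a (4), but 0 do in Rplp0 and Rpl4. The window of Rpl13a overlaps coding sequence of an annotated transcript. The 30 bases before each end are printed with the polyadenylation signal in capitals. AATAAA and ATTAAA were searched on the strand of the gene only, and all 6 windows held AATAAA, 10 to 14 bases before the end. Over 21733 protein-coding genes, the last 30 bases of the longest transcript held either hexamer in 63.4%, and the 30 bases ending 300 bases further in held either in 2.42%.
Rps3, CD8SP (chr7:99478886-99478915, minus strand): taaagacatttAATAAAatcttgaacaaag
Rps24, CD8SP (chr14:24495824-24495853, plus strand): tttctgagaggacaAATAAActaaaaagct
Rplp0, CD8SP (chr5:115563481-115563510, plus strand): agaaagatggaAATAAAggcttacttctct
Rpl13a, CD4SP (chr7:45125925-45125954, minus strand): ctggtgtgaacccAATAAAgactgtttgcc
Rpl4, CD4SP (chr9:64178484-64178513, plus strand): ccgcatatttcAATAAAtcaaacatgtggt
Rpl4, CD8SP (chr9:64178485-64178514, plus strand): cgcatatttcAATAAAtcaaacatgtggtg
The Rps24 end lies at the very base where the assembled transcript of 425 FPKM ends in CD8SP, 0 bases away. The Rps3 end lies 24 bases from the end of the assembled transcript in CD8SP and 26 bases from that in CD4SP. For Rplp0 the nearest assembled end was 112 bases away. In the Rpl4 pair the libraries differed by 1 base. The RefSeq end of Rpl4, at 64178562, lies less than 100 bases from both long-read ends. The short-read rule, which counts from the RefSeq end, therefore could not count an end at that site. No short-read transcript of Rpl13a ended early.

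The long-read tables held few isoforms of these short messages. There were 15 of 8289 isoforms in CD4SP (0.181%), from 14 members, and 23 of 9476 in CD8SP (0.243%), from 22 members. Isoforms under 1000 bases made up 2.45% and 3.27% of all isoforms, but 11 of 15 and 16 of 23 of those of the members. The members' median length was 529 and 485 bases, beside 2882 and 2597 over all isoforms. Read counts per isoform are not given, so the depth behind each is unknown, and 53 members had no isoform in either library, which says nothing of their expression. Members found in both included Rpl21, Rpl23, Rpl3, Rpl4, Rpl41, Rpl5 and Rps25. Rpl5 had the most, with 3 over both libraries.

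Many of these isoforms lacked the 5′ end of the message. Incomplete splice matches labelled as 5′ fragments made up 5 of 15 in CD4SP (33.3%, exact Clopper-Pearson 95% interval 11.8 to 61.6) and 15 of 23 in CD8SP (65.2%, 42.7 to 83.6). Over all isoforms the label made up 8.84% and 11.6%. In the members all isoforms with this label began inside the annotated start. Those of Rps3, Rps24, Rplp0 and Rpl4 also ended before the annotated end, as given above. The 2-sided Fisher's exact test between the libraries gave p = 0.0960 and 0.427 after Benjamini-Hochberg adjustment over 6 shares. Full splice matches were 6 of 15 (40%) and 5 of 23 (21.7%), beside 7.87% and 8.42% of all isoforms. Single-exon isoforms were 3 of 15 (20%) and 1 of 23 (4.35%), beside 66.8% and 64.7% of all. None of the 6 shares differed between the libraries at an adjusted p of 0.05, and none at an unadjusted one. With 15 and 23 isoforms even the difference in 5′ fragments, 33.3% against 65.2%, did not reach that level, so large differences remain undecided. These tests compare 2 libraries and cover counting error only.

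Where the ends could be placed, the 3′ end lay within 10 bases of the annotated end in 9 of 13 member isoforms in CD4SP and 14 of 21 in CD8SP, against 38.5% and 41.5% of all isoforms. The 5′ end lay 100 bases or more inside the annotated start, in genomic distance, in 9 of 13 and 19 of 21. Its median distance inside was 664 bases in CD4SP and 602 in CD8SP. Over all isoforms the median was 5716 and 6842 bases. This distance spans introns and was not scaled to gene length, so the medians cannot be compared between members and all isoforms. The share of starts 100 bases or more inside was not counted over all isoforms. Isoforms that began close to the annotated start included Rpl3 in CD8SP, with 10 exons and 1292 of 1351 bases, Rpl38 in CD4SP, with 5 exons and 313 of 364 bases, and Rpl13a in CD4SP, with 8 exons. A few isoforms kept intron sequence. Rps25 had a 1657-base isoform with a retained intron in CD4SP, Rps7 had one of 1801 bases in CD8SP, and Rpl26, listed at 0 FPKM in both short-read tables, had a single-exon isoform of 3937 bases in CD4SP whose end is followed by 75% A in the genome.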

How the data were processed

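The labels describe 10 samples, 1 long-read library and 4 short-read lanes per lineage. Members and lists were chosen with earlier results of these data known. The deposited short-read tables give transcript FPKM with intervals, written by Cufflinks per the file headers, and the submitters' processing notes name Cufflinks 2.1.1, TopHat2 2.0.14, GSNAP, RSEM 1.3.1 and GRCm38, with no roles. The deposited long-read tables list, per the file headers, isoforms with the percent of A downstream of each end. A deposited TPM table whose isoforms are not paired with genes was not used. Sequencing depth is unknown, so no interval from read counts was added to the deposited ones.

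Gene FPKM sums the protein-coding RefSeq transcripts and the assembled multi-exon transcripts that share an intron with that gene only, and its interval sums theirs. RefSeq identifiers were named for 26247 of 27024 protein-coding transcripts. The log2(FPKM + 0.1) scale of all ratios understates changes of low genes. The exon-based value uses transcripts of at least 200 bases and rests on the same FPKM. An intron counted as retained where an exon reached 10 bases beyond it on both sides. Fisher's exact tests used scipy 1.17.1, and copies were found with BLAST+ 2.17.0. The call rule, the adjustment, and skipped exons and alternative 5′ sites among the events were checked on simulated data. Retained introns and the other event types were not. The simulated intervals always held their own value, unlike some deposited ones. Named were the 10 most abundant members, the 10 largest ratios called in each direction, members at 0 or under 1 FPKM, paralog pairs, members with a known role, members of the largest splicing differences and the 10 with most long-read isoforms, and in other lists up to 6 called and the 2 most abundant genes. Rpl18, Rpl32, Rpl32l, Rpl7a, Rpl22l1, Rps15 and Rps15a fall outside this rule and were chosen after their values were seen, as were the alternatives restricted to genes above 0, to short genes and to events outside 2 members. Rpl17 and Rps14 sequences are not printed. Some members count in the totals but are not reported here by name.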

Additional observations from a re-analysis of the deposited data

Results flagged for a closer look

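Isoforms assigned to ribosomal protein pseudogenes, which entered no comparison above, appeared among the long reads. The CD8SP library held 6 such isoforms from 6 pseudogenes (Rpl10a-ps1, Rpl23a-ps3, Rpl31-ps8, Rpl9-ps6, Rps16-ps2 and Rps6-ps4). The CD4SP library held 3, from Rpl35a-ps7, Rpl7-ps7 and Rps6-ps4. All are single-exon isoforms whose end is followed by at least 60% A in the genome.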

How the results depend on the processing

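No paired analysis was possible because the lanes that share a number between lineages are pooled in 1 table per lineage, and for the same reason no replicate could be left out. The number of members called higher in CD8SP was 20, and it was 13 after scaling and 38 at 1.5-fold, where 43 were called in all (23.2% and 31.8% of all genes). The 4 called higher in CD4SP became 0 at 5 FPKM or more and 0 among genes above 0 in both libraries, an alternative chosen after seeing the data. The median log2 ratio of 0.70 was 0.78 at 5 FPKM or more and 0.49 after scaling, and stayed above the median over all genes in each. The member share of FPKM was 4.71% and 5.98% with RefSeq transcripts only, a ratio of 1.27 in place of 1.47, 4.19% and 5.62% for the exon-based value, a ratio of 1.34, and 3.37% and 4.89% without the most abundant member of each library, a ratio of 1.45. Of 43 splicing events called, 17 were left at a summed FPKM of 5, 3 with both forms in both libraries and 28 without Rpl23 and Rpl10a. Of 6 annotated events called, 0 were left at a summed FPKM of 5, and no annotated event had both forms in both libraries. Among single genes, the log2 ratio turned to -1.93 for Rps24, -4.10 for Rpl10a, -4.26 for Mrpl15 and 0.86 for Btf3 with RefSeq transcripts only, and in the exon-based value to -1.02 for Rpl24, -0.042 for Rps12, 0.13 for Btf3, 0.26 for Mlst8, 0.81 for Mrpl42 and 0.21 for Rps6kb2. Members not called at first turned too, in the exon-based value Rpl10 from 0.69 to -2.93, Rpl11 from 2.17 to -0.38, Rpl31 from -0.24 to 0.77 and Rps7 from -0.997 to 0.44, and with RefSeq transcripts only Rpl31 to 1.47 and Rps7 to 0.49. These alternatives count other transcripts, and beyond that the cause was not tested. Unknown read depth leaves the error of low FPKM unmeasured.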
